A study of Mus musculus with 14 samples.

Results

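ETn and MusD elements are related long terminal repeat (LTR) retrotransposons of the ERVK family of mouse transposable elements (TE), and their RNA was followed here in male germ cells that lack the DNA methyltransferase DNMT3C. The members were all ERVK annotations whose subfamily name starts with ETn, MMETn or RLTRETN. They comprised 5 of 1095 TE subfamilies in the spermatogonia table (5 of 1098 in the spermatocyte table) and 5606 of 3725827 TE copies. The subfamilies were ETnERV-int (906 copies), ETnERV2-int (1805 copies), ETnERV3-int (560 copies) and MMETn-int (980 copies), which are internal parts, and RLTRETN_Mm (1355 copies), which is an LTR. Some of the internal copies lie beside LTRs of other subfamilies, which are no members. Polyadenylated RNA of sorted germ cells was sequenced from littermates on a C57Bl6/J background that carried the genotype Dnmt3CKO/KO (KO) or wild type (WT). Spermatogonia (Spg) came from mice 14 days old and were sorted as EpCAM-positive and β-2-microglobulin-negative cells, with 3 KO and 3 WT libraries. Spermatocytes (Spc) came from mice older than 20 days and were sorted by Hoechst staining, with 4 KO and 4 WT libraries. No group carried another allele or agent, and KO and WT stand below for the libraries labelled so.

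LTR retrotransposons consist of an internal part between a pair of LTRs, and the LTR at the 5′ end holds the promoter. MusD elements encode the proteins of a retrovirus without an envelope, whereas ETn elements carry no working genes of their own and are copied by the proteins of MusD, with which they share their LTR. New ETn insertions are a known source of mutations in laboratory mice. In male germ cells the promoters of young retrotransposons are methylated before birth, and DNMT3C, an enzyme of rodents, adds this methylation at young copies. Males without it arrest in meiosis.

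The sequences below show what an LTR and an internal part of these elements look like. They are those of members that RefSeq promoter windows or GENCODE transcripts of the GRCm38 build cover, and the LTRs among them had few reads. The first 3 are LTR stretches of 300 bases, the next spans the end of an LTR and the internal bases after it, and the last is internal. Each is printed 5′ to 3′ with CpG dinucleotides, the bases that DNA methyltransferases modify, in capitals. RLTRETN_Mm_dup439 and RLTRETN_Mm_dup587 belong to elements of which another piece was lower in KO spermatocytes, RLTRETN_Mm_dup1163 is a near-identical LTR elsewhere, MMETn-int_dup250 had the most reads of its subfamily in spermatogonia, and ETnERV2-int_dup221 belongs to the locus that held most ETnERV2-int reads in WT spermatocytes.
RLTRETN_Mm_dup439 (chr6:124797044-124797343, minus strand): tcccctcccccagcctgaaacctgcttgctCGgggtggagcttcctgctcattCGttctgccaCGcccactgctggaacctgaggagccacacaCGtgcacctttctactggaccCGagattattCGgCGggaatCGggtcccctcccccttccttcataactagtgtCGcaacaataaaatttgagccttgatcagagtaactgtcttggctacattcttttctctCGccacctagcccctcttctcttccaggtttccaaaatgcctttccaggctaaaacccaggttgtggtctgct
RLTRETN_Mm_dup587 (chr8:85159125-85159424, minus strand): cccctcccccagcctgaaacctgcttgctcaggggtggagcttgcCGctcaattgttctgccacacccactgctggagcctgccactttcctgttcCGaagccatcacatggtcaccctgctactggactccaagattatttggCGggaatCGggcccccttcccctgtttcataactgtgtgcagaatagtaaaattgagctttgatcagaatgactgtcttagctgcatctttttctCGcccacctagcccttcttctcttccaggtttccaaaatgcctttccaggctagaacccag
RLTRETN_Mm_dup1163 (chr16:11191482-11191781, plus strand): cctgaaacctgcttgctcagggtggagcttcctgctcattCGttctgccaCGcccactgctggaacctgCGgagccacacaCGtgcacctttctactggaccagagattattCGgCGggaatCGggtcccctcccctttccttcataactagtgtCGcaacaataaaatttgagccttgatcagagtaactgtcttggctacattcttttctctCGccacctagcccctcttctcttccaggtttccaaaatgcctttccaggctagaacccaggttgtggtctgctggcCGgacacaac
MMETn-int_dup250 with the end of its LTR (chr6:115824499-115824714, plus strand, 108 bases of LTR and then 108 internal bases): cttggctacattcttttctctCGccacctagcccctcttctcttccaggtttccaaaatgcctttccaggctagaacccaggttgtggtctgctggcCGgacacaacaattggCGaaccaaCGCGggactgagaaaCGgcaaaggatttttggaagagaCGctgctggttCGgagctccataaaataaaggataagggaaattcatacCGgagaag
ETnERV2-int_dup221 (chr3:35636896-35636996, minus strand): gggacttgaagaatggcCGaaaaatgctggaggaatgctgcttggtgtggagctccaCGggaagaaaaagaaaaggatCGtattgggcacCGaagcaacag

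The first 2 windows start at RefSeq genes Gm38894 and Gm33296, and the third stretch is an exon of the lincRNA 4930509G22Rik. The other stretches are exons of the antisense RNA Gm44206 and of the lincRNA Gm6639. The 3 LTR stretches held 10, 5 and 10 CpG, against a median of 7 (quartiles 3 and 20) in 32851 RefSeq promoter windows of the same length. RLTRETN_Mm_dup439 and RLTRETN_Mm_dup1163 shared 98.3% of 287 aligned bases, whereas RLTRETN_Mm_dup587 shared 88.3% and 88.8% with them. Reads of such copies match several places, and the quantification divided them between the copies. Of 4 LTR windows matched in all, the poly(A) signal (AATAAA) was found on either strand in 2, against 19.6% of the promoter windows. The TATA box (TATAAA) was found in 0 of the 4, against 13.6% of the windows, the GC box (GGGCGG) in 0, against 35.7%, and the CCAAT box in 0, against 37.4%. The core of the NRF1 motif (TGCGCA) was found in 0 as well, against 7.8%. These matches say only that the letters are or are not in the window.

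The libraries held 40555726 to 53323651 counts, of which ETn and MusD took 3073 to 5287 in spermatogonia and 3589 to 7919 in spermatocytes. The targeted gene was counted in every library: Dnmt3c had 116, 58 and 67 counts in KO and 89, 65 and 53 in WT spermatogonia, and 55, 56, 52 and 57 in KO and 28, 11, 19 and 25 in WT spermatocytes. Its log2 fold change was 0.10 (SE 0.38, edgeR adjusted p = 0.9996) in spermatogonia and 0.77 (SE 0.42, adjusted p = 0.124) in spermatocytes, and in spermatocytes every KO library was above every WT library. When CPM were taken from library totals alone, without the TMM factors that correct for composition, the spermatocyte value was 1.52 (SE 0.40, adjusted p = 0.00642), so the RNA was called lower in KO at neither stage under either scaling. Which part of the gene the allele changes is not given in the sources used here. KO and WT spermatocytes differed in cell type markers. The summed level of 6 pachytene genes was 161 to 278 counts per 1000000 (CPM) in KO and 6974 to 13302 in WT, with all 6 lower. That of 5 spermatid genes was 0.454 to 5.13 in KO and 34.8 to 881 in WT (5 of 5 lower), and 7 spermatogonia genes summed to 382 to 966 in KO and 33.3 to 230 in WT (6 of 7 higher). Genes of somatic cells were higher in KO spermatocytes too: 4 of 4 peritubular genes (153 to 1852 against 16.6 to 21.5), 4 of 4 Leydig cell genes (37.6 to 227 against 9.85 to 19.0) and 3 of 3 macrophage genes (10.6 to 53.3 against 1.65 to 2.83), while the early meiotic sums overlapped (1027 to 2010 against 1051 to 1896, 3 of 6 genes higher) and 0 of 5 Sertoli cell genes (208 to 720 against 93.9 to 351) and 0 of 3 erythroid genes passed the test. No list had a gene at 0 in the spermatocyte libraries. In spermatogonia no list gene was called, and the pachytene sum was 152 to 169 in KO but 544, 1814 and 281 in WT replicates 1 to 3. In such samples fewer cells of a type and less RNA per cell cannot be told apart, and the part of cell composition in the values below was not tested.

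In spermatogonia the RNA of all 5 subfamilies differed between KO and WT by less than the spread of the libraries. MMETn-int, the internal part of ETn, stood at 24.1, 37.1 and 25.8 CPM in KO and 19.8, 36.8 and 26.1 CPM in WT. ETnERV-int, the most abundant of the ETnERV names, stood at 15.04, 27.9 and 15.7 CPM in KO and 17.0, 29.1 and 25.6 CPM in WT. In each of these subfamilies the KO and WT ranges overlapped, with replicate 2 the highest in each genotype. Between same-numbered libraries ETnERV-int was lower in KO in all 3 pairs (log2 fold change −0.30, SE 0.19, adjusted p = 0.691 with the replicate number as a block). The LTR RLTRETN_Mm had 9.10 ± 1.95 CPM (SD, n = 3) in KO and 10.48 ± 3.99 in WT, ETnERV2-int 9.75 ± 3.90 and 12.1 ± 5.68, and ETnERV3-int 14.99 ± 6.14 and 13.8 ± 4.01. The log2 fold changes were −0.29 (SE 0.31) for ETnERV-int, −0.31 (SE 0.41) for ETnERV2-int, 0.12 (SE 0.37) for ETnERV3-int, 0.07 (SE 0.28) for MMETn-int and −0.20 (SE 0.33) for RLTRETN_Mm, all with an adjusted p of 0.9996. Calls were made with edgeR's quasi-likelihood test where the p-value, adjusted over all genes and TE subfamilies, was below 0.01. By this rule 0 of the 5 were called in either direction, and 0 by DESeq2, against 0.76% of 921 TE subfamilies called higher and 0% called lower. An unadjusted p under 0.05 was found for 0 of the 5, against 6.19% of the TE subfamilies.

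In spermatocytes 2 of the 5 subfamilies fell in KO and none was called higher. RLTRETN_Mm had 10.3, 8.91, 10.7 and 10.54 CPM in KO and 28.1, 17.8, 25.1 and 25.03 CPM in WT, so that every KO library was below every WT library. Its log2 fold change was −1.25 (SE 0.25, adjusted p = 0.00150). ETnERV2-int had 14.5, 11.1, 14.8 and 16.7 CPM in KO and 23.3, 29.2, 40.4 and 21.8 CPM in WT, again without overlap. Its log2 fold change was −1.01 (SE 0.28, adjusted p = 0.00847). Of all 929 TE subfamilies tested in spermatocytes, 14% were called lower and 11.7% higher. ETnERV3-int went the other way without passing the threshold, with 40.3, 17.3, 22.1 and 33.7 CPM in KO and 16.3, 10.6, 18.9 and 17.5 CPM in WT (log2 fold change 0.84, SE 0.33, adjusted p = 0.0410). KO replicate 2 of this subfamily lay within the WT range. ETnERV-int (20.5 ± 3.08 CPM in KO, 26.4 ± 10.2 in WT, SD, n = 4 each) and MMETn-int (28.5 ± 4.69 and 26.2 ± 7.97) overlapped widely, with log2 fold changes of −0.37 (SE 0.32, adjusted p = 0.320) and 0.12 (SE 0.27, adjusted p = 0.696).

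The calls depended on the scaling, and the direction of ETnERV-int did too. With library totals in place of TMM factors the median over all genes moved from 0.11 to 0.79 on the log2 scale, RLTRETN_Mm went to −0.55 (adjusted p = 0.102) and ETnERV2-int to −0.39 (adjusted p = 0.346), both still below that median, while ETnERV3-int was called higher at 1.49 (adjusted p = 0.00342) and ETnERV-int turned to 0.29. The call of ETnERV2-int was also lost on leaving out any 1 of 7 of the 8 libraries, all but WT replicate 4, with an adjusted p of 0.0107 to 0.0235, and that of RLTRETN_Mm kept an adjusted p of 0.00129 to 0.00596. With replicates 1 and 4 of each genotype summed to 1 library neither was called (adjusted p of 0.0189 for RLTRETN_Mm and 0.0237 for ETnERV2-int).

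**Figure D1:**
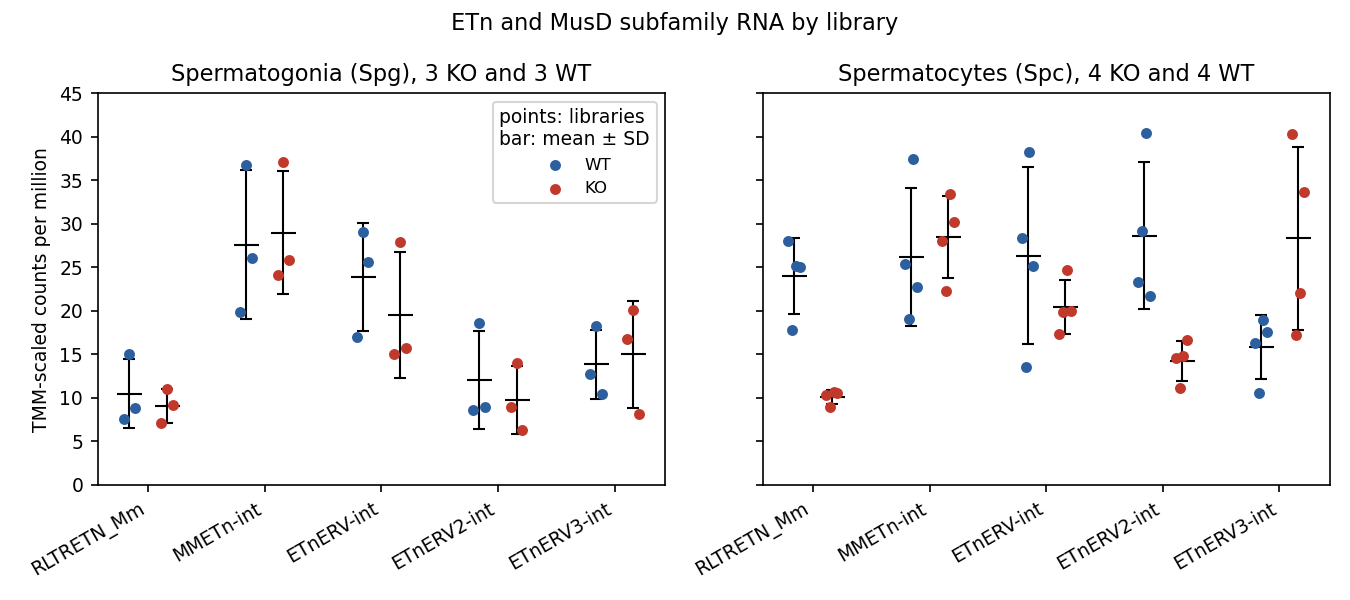
Levels of the 5 subfamilies in TMM-scaled counts per 1000000, in spermatogonia (left) and spermatocytes (right), with 1 point per library and the mean ± SD beside the points. In spermatocytes the 4 KO points of RLTRETN_Mm (8.91 to 10.7) and of ETnERV2-int (11.1 to 16.7) lie below all 4 WT points, a difference that passed no test when library totals were used for scaling, and the other groups overlap.

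The genotype effect was next compared between the stages over all 14 libraries. RLTRETN_Mm had the largest difference, a KO effect lower in spermatocytes than in spermatogonia (log2 −1.10, SE 0.39, adjusted p = 0.0339). The differences for ETnERV2-int (−0.78, SE 0.50) and ETnERV3-int (0.66, SE 0.52) were smaller against their error. Of the 5 subfamilies 0 were called for this difference, against 1.64% of 978 TE subfamilies with a higher effect and 4.81% with a lower one. An unadjusted p under 0.05 was found for 1 of the 5, against 22.4% of the TE subfamilies, and DESeq2 called 1.

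Within WT, both subfamilies that fell in KO spermatocytes were higher in spermatocytes than in spermatogonia. The log2 difference was 1.76 (SE 0.37, adjusted p = 0.000983) for ETnERV2-int and 1.69 (SE 0.29, adjusted p = 0.000208) for RLTRETN_Mm, and 22.7% of TE subfamilies were called higher and 2.76% lower in this comparison. For ETnERV-int, ETnERV3-int and MMETn-int the differences were 0.63, 0.69 and 0.42 and were not called. With library totals the median of all genes went from 0.02 to −0.76, these 3 values turned to −0.14, −0.12 and −0.35, and ETnERV2-int (0.99) and RLTRETN_Mm (0.87) stayed above 0 but were not called. Within KO, 0 of the 5 were called between the stages, against 1.43% of TE subfamilies called higher. An unadjusted p under 0.05 was found for 2 of the 5, against 25.3% of the TE subfamilies, and DESeq2 called 1. ETnERV3-int had a log2 difference of 1.35 (SE 0.38, adjusted p = 0.0413) and ETnERV2-int one of 0.98 (SE 0.36, adjusted p = 0.113). These comparisons share libraries with the genotype comparisons and are not independent of them.

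As a share of all TE counts, ETn and MusD made up less in KO than in WT at both stages. The 5 subfamilies together held 0.191%, 0.204% and 0.183% of TE counts in KO and 0.286%, 0.333% and 0.241% in WT spermatogonia. In spermatocytes they held 0.158% to 0.194% in KO and 0.345% to 0.548% in WT. Of ERVK counts alone their share in spermatogonia was 0.931% to 1.13% in KO against 2.09% to 3.08% in WT, and in spermatocytes 1.06% to 1.37% against 3.01% to 4.07%. KO and WT did not overlap in any of these shares. The summed level did overlap: in spermatogonia it was 65.3 to 110 CPM in KO against 65.7 to 118 in WT, and in spermatocytes 79.5 to 111 against 90.2 to 160. Its direction in spermatocytes turned with the scaling: the mean was 102 ± 15.01 CPM in KO and 121 ± 29.2 in WT (SD, n = 4 each) with TMM factors, but 129 ± 12.2 (112 to 140) and 98.1 ± 41.8 (73.2 to 161) per 1000000 counts of the library total. TE counts of all kinds, the denominator, moved the other way: they made up 3.60% to 5.44% of a KO library against 2.28% to 3.52% of a WT library in spermatogonia, and 5.74% to 8.67% against 1.77% to 2.93% in spermatocytes.

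The members were also set against intracisternal A particle (IAP) elements, the ERVK retrotransposons best known to respond to loss of DNA methylation, which were chosen here with their rise in these data known. For every 100 counts of IAPEz-int, the internal part of IAP, MMETn-int had 1.37, 2.54 and 1.76 counts in KO and 17.0, 25.3 and 23.8 in WT spermatogonia. The spermatocyte libraries gave 1.82, 2.36, 1.48 and 1.77 in KO and 21.7, 26.5, 19.7 and 21.1 in WT. The log2 difference of this ratio between KO and WT was −3.57 in spermatogonia and −3.60 in spermatocytes. RLTRETN_Mm per 100 counts of the IAP LTR IAPLTR1_Mm averaged 6.53 in KO and 105 in WT spermatogonia (log2 difference −3.99), and 6.64 and 328 in spermatocytes (−5.63). All KO libraries were below all WT libraries in these 4 comparisons. Since IAP was chosen for its rise, this difference is given as a description, with no p-value. A ratio within a library shows unequal change and not which of its parts changed.

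**Figure D2:**
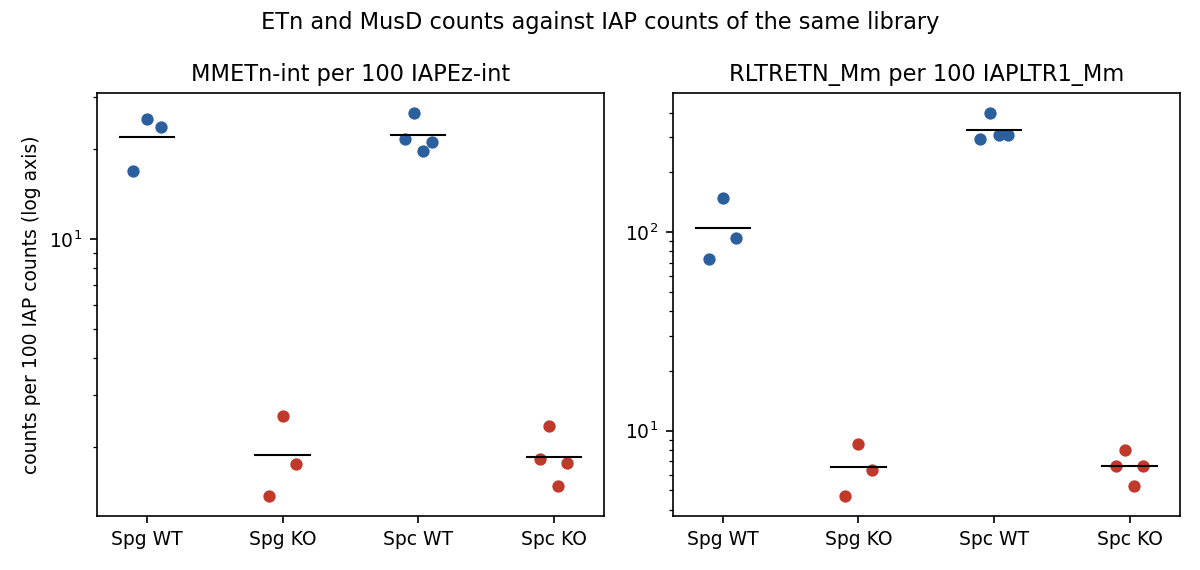
Counts of MMETn-int per 100 counts of IAPEz-int (left) and of RLTRETN_Mm per 100 counts of IAPLTR1_Mm (right), on log axes, with 1 point per library and a line at the group mean. Each KO group lies below its WT group: MMETn-int averages 1.89 in KO and 22.04 in WT spermatogonia, and 1.86 and 22.3 in spermatocytes.

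Subfamily counts add up many copies, so the single copies were examined. Reads per copy were recovered from the deposited values, and 1021 of the 5606 copies had a read in spermatogonia and 1351 in spermatocytes. Of all members 79.9% lay between genes, 11.95% in introns on the strand opposite to the gene and 5.6% in introns on the same strand, with 1.7% in exons on the same strand and 0.9% on the opposite one. A few copies held much of the RNA: the 10 with the most reads took 33.2% of member reads in spermatogonia and 32.0% in spermatocytes. The 325 internal copies of at least 4000 bases took 40.3% and 34.9%. Copies with a mean of at least 0.5 transcripts per 1000000 (TPM), 199 in spermatogonia and 240 in spermatocytes, were tested with limma on log2(value + 0.1), a scale that understates the change of low copies. That filter keeps copies that are high in 1 genotype alone, so the tested copies do not stand for all members.

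In spermatogonia 0 of 199 copies were called in either direction, against 0.0155% of all 252388 TE copies called higher and 0.000396% called lower. An unadjusted p under 0.05 was found for 12 of the 199 (6.03%), against 5.71% of all TE copies. The median log2 fold change of the tested members was 0.18, that of ERVK copies 0.62 and that of all TE copies 0.34. In spermatocytes 20 of 240 copies (8.33%) were called higher and 17 (7.08%) lower. Of these 37 calls 16 to 32 were kept on leaving out 1 library, and 12 with replicates 1 and 4 averaged. Of all 241893 TE copies 10.2% were called higher and 2.93% lower, and of 13927 ERVK copies 15.4% and 5.07%. The median of the members was 0.38, against 1.75 in ERVK and 1.76 in all TE copies. On the deposited TPM, which leave out the rise of TE counts as a whole, the calls were 12 higher (5%) and 28 lower (11.7%), against 7.17% and 4.06% of all TE copies on that scale.

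The calls were spread over all 5 subfamilies. Of RLTRETN_Mm 6 copies were called higher and 9 lower (of 101 tested), of ETnERV-int 5 and 1 (of 49), of ETnERV2-int 2 and 4 (of 29), of ETnERV3-int 5 and 1 (of 18) and of MMETn-int 2 and 2 (of 43). KO and WT did not overlap in any of the 37, which were called for their difference. Of the 240 tested copies 80 (33.3%) had groups that did not overlap, against 34.4% of ERVK and 22.9% of all TE copies tested. Of the 20 called higher 13 lay between genes and 7 in introns, 5 of these on the strand opposite to the gene. Of the 17 called lower 11 lay between genes, 4 in introns and 2 in exons on the same strand. The median length was 724 bases for copies called higher and 337 for copies called lower and for all tested. Only 10 of the 37 were called under every processing alternative that tested them, and all 37 kept their sign.

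**Figure D3:**
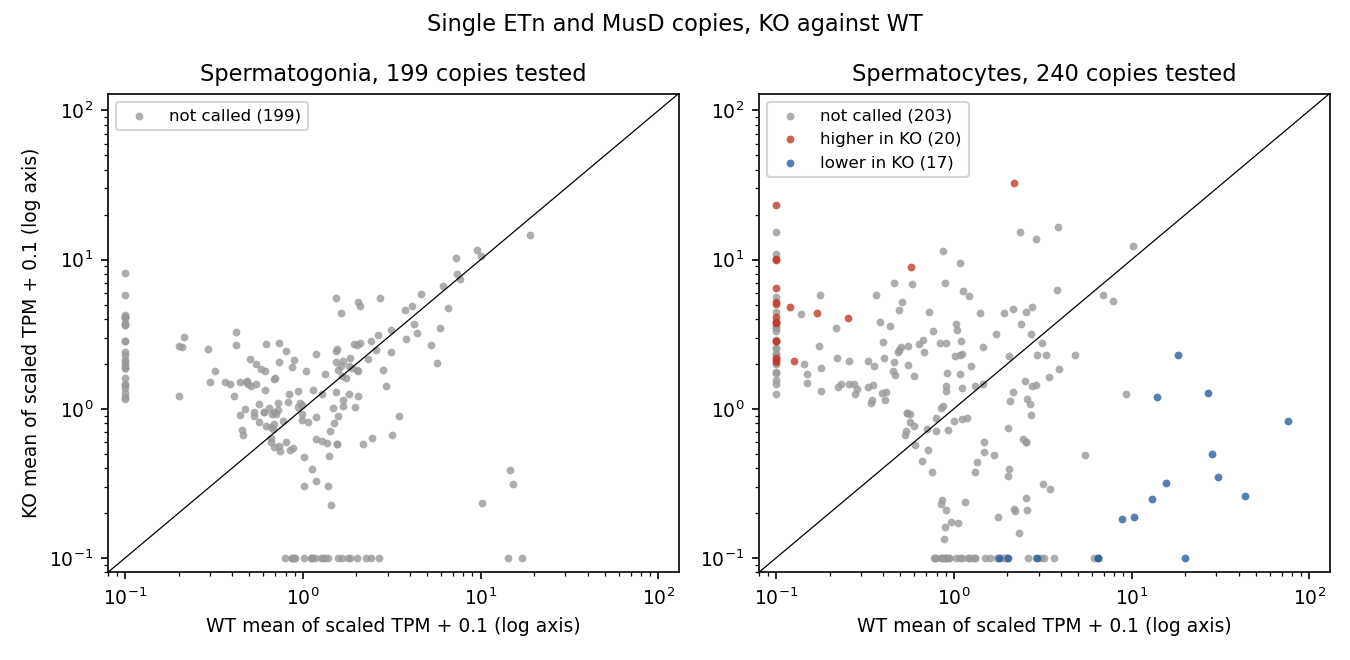
Mean TPM of single copies in KO (y axis) against WT (x axis), scaled to the TE counts of the library, plus 0.1, on log axes, in spermatogonia (199 copies, left) and spermatocytes (240 copies, right). Copies on the left and lower edges had no read in 1 genotype. In spermatocytes 20 copies were called higher (red, above the line of equality) and 17 lower (blue, below it), and on the deposited TPM 12 and 28.

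The copy with the largest rise was an LTR without an internal part, RLTRETN_Mm_dup19 at chr1:11776049-11776369, in an intron of A830018L16Rik and on the opposite strand. It had 52, 21, 59 and 56 reads in KO and 0 in each WT spermatocyte library. It also had 26, 5 and 6 reads in KO and 0 in each WT spermatogonia library. The scaled level in KO was at least 42.0-fold higher in spermatocytes and at least 11.4-fold higher in spermatogonia, taking WT at 3 reads over the group, the approximate 95% upper limit for a count of 0. The fitted log2 fold change, which depends on the pseudocount, was 7.65 (SE 0.85, adjusted p = 0.000253) in spermatocytes, and the difference in spermatogonia was not called (adjusted p = 0.585).

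In another intron of the same gene lay an internal element in 5 pieces, chr1:11619673-11624576, also on the opposite strand. Summed over the pieces it had 112, 17, 106 and 136 reads in KO and 5, 0, 0 and 0 in WT spermatocytes, and 64, 40 and 30 reads in KO and 0 in all WT spermatogonia. It was thus read in each of the 7 KO libraries and in 1 of the 7 WT libraries. Its pieces ETnERV-int_dup7 (chr1:11619932-11620009) and ETnERV-int_dup8 (chr1:11620132-11621277) were called in spermatocytes and were at least 4.69-fold and 25.2-fold higher. The host gene itself had 5.38 ± 2.45 CPM in KO and 1.15 ± 0.942 in WT spermatocytes (SD, n = 4 each, log2 fold change 2.23, SE 0.68, adjusted p = 0.0138, not called). With library totals the host gene was called higher (3.03, SE 0.63, adjusted p = 0.00196). In spermatogonia it had 0.280 ± 0.209 and 0.504 ± 0.772 CPM (n = 3 each).

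The other copies with the largest rise were short and sparsely read. ETnERV-int_dup20 (chr1:72247799-72247969, intron of the lincRNA D230017M19Rik) had 6, 7, 16 and 15 reads in KO and 0 in WT spermatocytes, at least 9.82-fold higher. In spermatogonia it had 5, 13 and 10 reads in KO and 16, 10 and 9 in WT, so it was read in WT cells of the earlier stage. ETnERV3-int_dup108 (chr5:109022897-109023654, between genes) had 31, 15, 7 and 41 reads in KO and 0 in WT spermatocytes, at least 20.98-fold higher, and 0 or 1 read in each spermatogonia library. RLTRETN_Mm_dup879 (chr12:23163240-23163560) had 1, 22, 17 and 8 reads against 0, at least 10.7-fold higher. ETnERV-int_dup832 (chr17:54135119-54135255) had 4, 3, 15 and 2 reads against 0, at least 5.36-fold higher. All 4 of these had no read in any WT spermatocyte library.

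Larger numbers of reads came from longer copies called higher, which are named here after their values were seen. ETnERV3-int_dup187 (chr7:106267266-106269782, between genes) had 867, 359, 186 and 617 reads in KO and 14, 39, 128 and 10 in WT spermatocytes (log2 fold change 4.00, SE 0.88, adjusted p = 0.00717). In spermatogonia both genotypes read it, with 234, 283 and 25 reads in KO and 201, 211 and 61 in WT. ETnERV3-int_dup110 (chr5:123539693-123545534) is 5842 bases long, lies in an intron of Vps33a on the opposite strand and is flanked on both sides by the LTR RLTR13A2, which is no member. It had 362, 143, 421 and 372 reads in KO and 18, 13, 52 and 12 in WT spermatocytes. Its host Vps33a, a gene of vesicle transport, had a log2 fold change of 0.73 (SE 0.29, adjusted p = 0.0420) and was not called, but with library totals it was (1.39, SE 0.36, adjusted p = 0.00617).

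MMETn-int_dup888 (chr17:32370064-32375738) is 5675 bases long and lies in an intron of Wiz on the opposite strand and of the lincRNA Gm26858 on the same strand. It had 58, 95, 112 and 50 reads in KO and 0, 2, 2 and 1 in WT spermatocytes, and 84, 143 and 102 in KO and 40, 16 and 25 in WT spermatogonia. The 2 genotypes did not overlap at either stage, and only the difference in spermatocytes was called. The levels of Wiz overlapped (97.1 ± 10.2 CPM in KO, 92.2 ± 18.9 in WT, SD, n = 4 each, log2 fold change 0.07, SE 0.20). MMETn-int_dup97 (chr3:20045044-20048244) had 75, 61, 71 and 117 reads against 4, 1, 13 and 0 in spermatocytes, and 27, 19 and 6 against 38, 24 and 33 in spermatogonia.

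Of the 4 copies with the largest fall 3 were pieces of 1 element at chr17:27288265-27290352, between genes on the minus strand, with an LTR at either end. Its 5 pieces together had 2, 18, 1 and 3 reads in KO and 260, 400, 741 and 191 in WT spermatocytes. In spermatogonia they had 2, 0 and 4 reads in KO and 89, 382 and 137 in WT. The highest KO library, with 18 reads, lay below the lowest WT library, with 89. The LTR RLTRETN_Mm_dup1241 had 0, 2, 0 and 0 reads in KO and 90, 136, 204 and 40 in WT spermatocytes (log2 fold change −7.91, SE 0.92, adjusted p = 0.000302). The other LTR, RLTRETN_Mm_dup1240, had 0 reads in KO and 37, 37, 104 and 35 in WT spermatocytes, at least 106-fold lower in KO. The internal piece MMETn-int_dup910 had 0, 8, 1 and 0 reads against 80, 164, 247 and 81 (log2 fold change −6.67, SE 0.99, adjusted p = 0.000896), and ETnERV-int_dup822 was called lower too.

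Some copies were lower in KO spermatocytes and had few reads in spermatogonia of either genotype. RLTRETN_Mm_dup594 (chr8:107217505-107217827, an LTR alone between genes) had the highest level of all members in WT spermatocytes, with 289, 97, 96 and 234 reads, and 3, 1, 1 and 1 in KO (log2 fold change −6.46, SE 0.78, adjusted p = 0.000354). In spermatogonia it had 2 reads in WT replicate 2 and 0 in the other libraries. Another LTR alone, RLTRETN_Mm_dup1320 on chromosome 18, lies in an intron of the lincRNA AC133607.2 on the same strand. This LTR had 2, 0, 0 and 0 reads in KO and 99, 68, 76 and 77 in WT spermatocytes, and 6 reads in WT replicate 2 of spermatogonia. WT replicate 2 was also the spermatogonia library with the highest pachytene sum, 1814 CPM against 152 to 544 in the others.

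The elements of the first 2 printed LTRs also had fewer reads in KO spermatocytes. The element at chr6:124797030-124802535, whose LTR at the 3′ end is RLTRETN_Mm_dup439, had 11, 11, 15 and 5 reads in KO and 54, 95, 181 and 39 in WT spermatocytes, and 5, 12 and 3 in KO and 31, 112 and 30 in WT spermatogonia. Of its pieces only the LTR at the 5′ end, RLTRETN_Mm_dup440, was called (0 reads in KO and 5, 18, 34 and 12 in WT spermatocytes, at least 34.4-fold lower). RLTRETN_Mm_dup439 itself had 3, 11, 0 and 0 reads in KO and 0, 0, 13 and 0 in WT spermatocytes. The element at chr8:85159097-85166909 with RLTRETN_Mm_dup587 had 0, 0, 2 and 3 reads in KO and 40, 12, 54 and 36 in WT spermatocytes, and at most 4 reads in any spermatogonia library. RLTRETN_Mm_dup587 had 0 reads in KO and 15, 0, 18 and 6 in WT spermatocytes. MMETn-int_dup250 had 137, 173 and 121 reads in KO and 153, 140 and 138 in WT spermatogonia, and 50, 71, 149 and 52 in KO and 28, 0, 69 and 14 in WT spermatocytes, with no call at either stage.

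**Figure D4:**
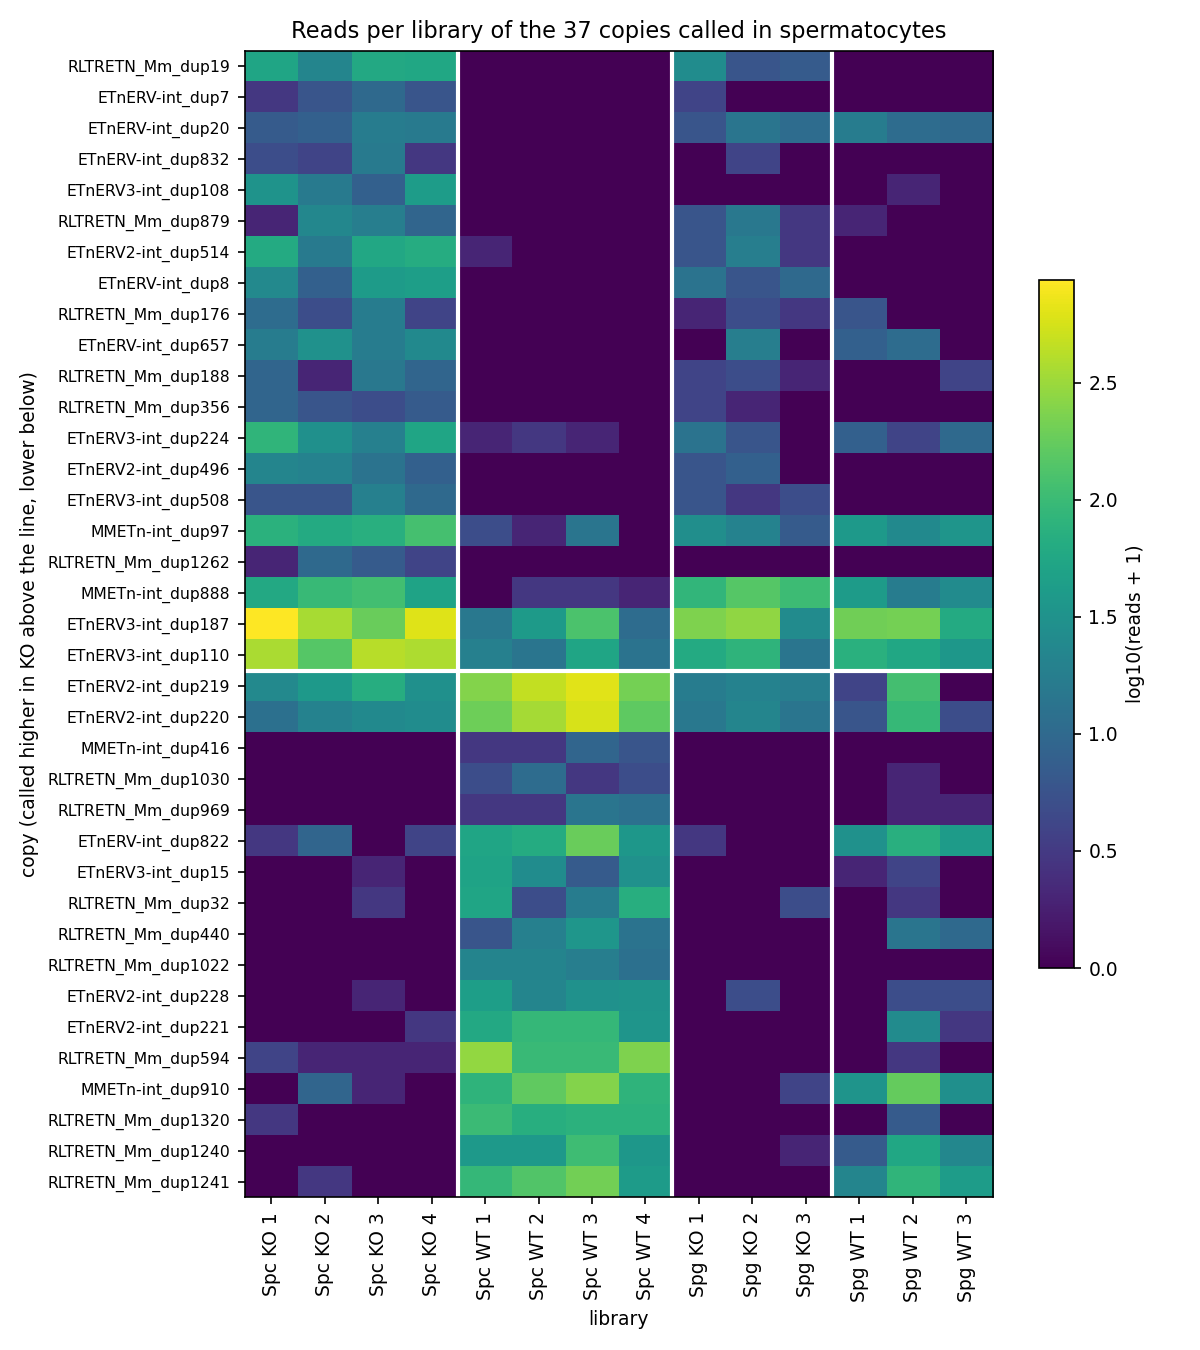
Reads of the 37 copies called in spermatocytes (rows) in each library (columns), coloured by log10(reads + 1). The 20 copies called higher in KO are above the horizontal line and the 17 called lower below it, and the vertical lines separate the groups. RLTRETN_Mm_dup19 (top) and RLTRETN_Mm_dup1241 (bottom) show the same genotype in both stages, and the calls numbered 12 and 28 on the deposited TPM.

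In WT spermatocytes most ETnERV2-int reads came from 1 locus. It lies at chr3:35630193-35636996 inside the lincRNA Gm6639, on the same strand, and consists of ETnERV2-int_dup219, ETnERV2-int_dup220 and ETnERV2-int_dup221, each called lower. The LTR RLTR9E, which is no member, flanks it on both sides. The locus had 34, 57, 90 and 57 reads in KO and 501, 900, 1294 and 405 in WT spermatocytes. It held 58.7% to 77.9% of ETnERV2-int reads in WT and 4.19% to 10.4% in KO. All other ETnERV2-int copies summed to 13.0 ± 2.21 reads per 1000000 in KO and 9.59 ± 3.12 in WT (SD, n = 4 each), with overlapping groups. Gm6639 moved with it, with 18, 44, 88 and 28 counts in KO and 1329, 2267, 2193 and 1198 in WT spermatocytes (0.748 ± 0.511 and 43.8 ± 9.47 CPM, log2 fold change −5.87, SE 0.52, adjusted p = 1.31e-05). In spermatogonia the locus had 30, 40 and 30 reads in KO and 8, 233 and 6 in WT, and Gm6639 had 54, 34 and 27 counts in KO and 40, 516 and 18 in WT. At this stage the WT signal came from replicate 2, and its pachytene sum is given above. Reads of the lincRNA and of the element inside it cannot be told apart in these counts.

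Few copies held the RLTRETN_Mm reads of WT as well. In WT spermatocytes 47.0% to 63.7% of its reads fell in the 9 copies called lower, against 0.185% to 0.899% in KO. Without all called copies RLTRETN_Mm had 7.93 ± 0.445 reads per 1000000 in KO and 9.90 ± 2.40 in WT. For ETnERV3-int the called copies held the KO side instead, with 50.4% to 59.6% of its reads in KO in the 5 copies called higher and 4.00% to 19.6% in WT. Its other copies had 12.2 ± 3.36 reads per 1000000 in KO and 13.2 ± 3.24 in WT. These shares describe copies chosen for their difference and test nothing.

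**Figure D5:**
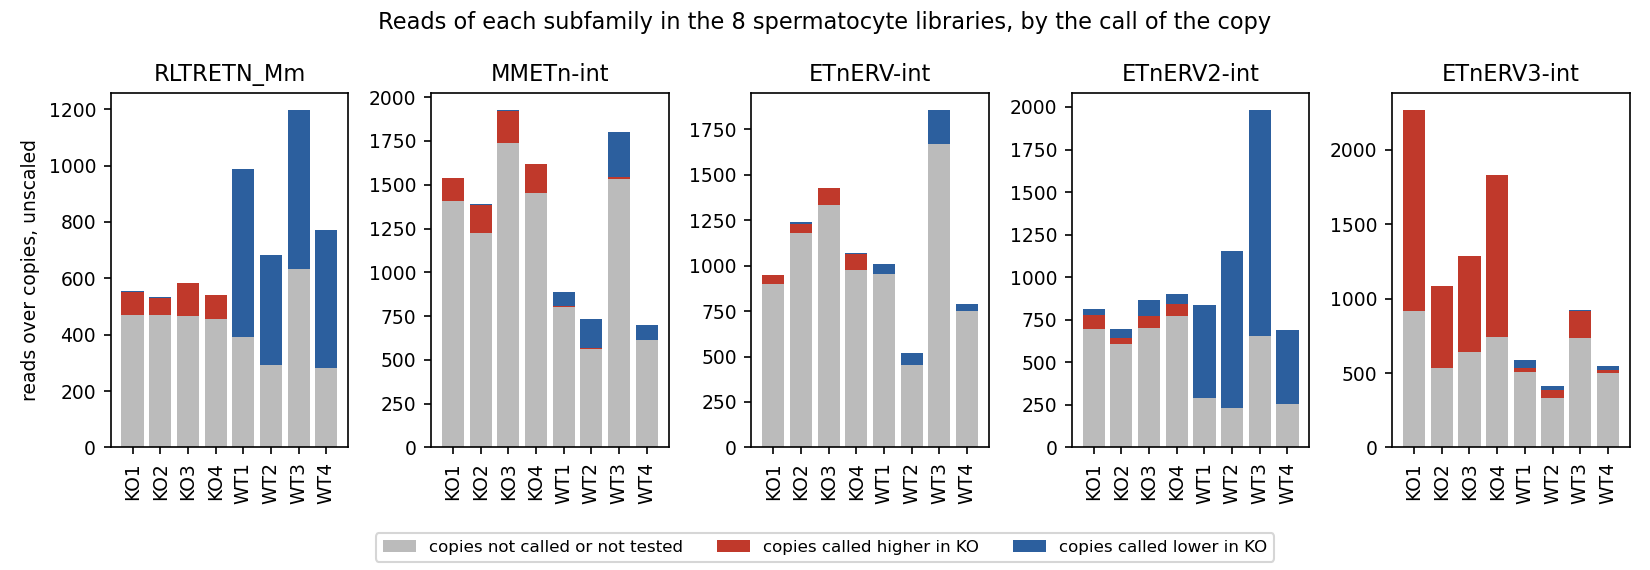
Unscaled reads of each subfamily in the 8 spermatocyte libraries, stacked by whether the copy was called lower in KO (blue), called higher (red) or neither (grey). The blue part of RLTRETN_Mm and ETnERV2-int is present in all 4 WT libraries (47.0% to 63.7% and 63.2% to 79.7% of reads) and small in KO, and the red part of ETnERV3-int is largest in KO (50.4% to 59.6%).

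The copies called in spermatocytes were then followed back to spermatogonia. Of the 20 called higher in spermatocytes 11 could be tested in spermatogonia, since they passed the filter on low values, some of them through KO reads alone. Of all 20, 8 had reads in spermatogonia in KO libraries only and 1 had none. Of the 17 called lower 9 could be tested and 2 had no reads. Of these 9, 4 were pieces of the chromosome 17 element and 3 were pieces of the Gm6639 locus, so they are not separate elements. None of these copies was called in spermatogonia by limma. When the recovered reads were instead tested with edgeR, 6 of 199 copies were called in spermatogonia, 2 higher (1.01%) and 4 lower (2.01%), where this test called 1.41% of all TE copies higher and 0.181% lower. In spermatocytes it called 32 member copies higher (13.3%) and 42 lower (17.5%), against 8.16% and 4.29% of all TE copies. In spermatogonia those called lower were 4 pieces of the chromosome 17 element, RLTRETN_Mm_dup1240, ETnERV-int_dup822, MMETn-int_dup910 and RLTRETN_Mm_dup1241, with adjusted p from 4.87e-09 to 0.000136. RLTRETN_Mm_dup1241 had 0 reads in KO and 21, 82 and 41 in WT spermatogonia, at least 51.7-fold lower. Those called higher were MMETn-int_dup15, the longest piece of the chromosome 1 element (49, 13 and 19 reads in KO and 0 in WT, adjusted p = 8.62e-05), and RLTRETN_Mm_dup331 at chr5:39991796-39992116 (19, 8 and 29 reads in KO and 0 in WT, adjusted p = 0.00181). In spermatocytes MMETn-int_dup15 had 60, 5, 40 and 69 reads in KO and 0 in WT, and RLTRETN_Mm_dup331 had 0, 26, 0 and 11 in KO and 0 in WT, and neither was called by limma.

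Some members with many reads in both genotypes were called at neither stage. ETnERV-int_dup742 (chr14:73188038-73194420), which lies in an intron of the tumour suppressor gene Rb1 on the same strand, had 101, 337 and 46 reads in KO and 265, 285 and 472 in WT spermatogonia, and 56, 251, 261 and 197 in KO and 39, 88, 154 and 11 in WT spermatocytes. ETnERV2-int_dup592 (chr7:25533884-25536603), the top copy of its subfamily in spermatogonia, had 144, 235 and 95 reads in KO and 145, 209 and 180 in WT spermatogonia, and 234, 224, 207 and 296 in KO and 46, 49, 145 and 23 in WT spermatocytes (log2 fold change 2.34, SE 0.70, adjusted p = 0.0334). Its spermatocyte groups did not overlap, but the difference was not called. In WT spermatogonia the highest scaled level was that of RLTRETN_Mm_dup863, a fragment of 55 bases in an intron of Gen1 on the same strand (chr12:11263803-11263857), with 7, 6 and 4 reads in KO and 12, 4 and 13 in WT. Gen1, which encodes a Holliday junction resolvase, had 36.6 ± 7.32 CPM in KO and 38.6 ± 5.76 in WT spermatogonia, and it rose in KO spermatocytes (30.5 ± 3.27 and 10.9 ± 3.55 CPM, log2 fold change 1.49, SE 0.28, adjusted p = 0.00108). In these the fragment had 6, 0, 11 and 4 reads in KO and 0 in WT and was not called. The pair ETnERV-int_dup126 and ETnERV-int_dup129 on chromosome 4 had equal read numbers in each spermatogonia library (18, 23 and 16 in KO, 47, 127 and 32 in WT), as near-identical copies that share reads can.

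Finally, 22 genes of ERV silencing and of transcription were examined. In spermatogonia 0 of 22 were called, with 1 at an unadjusted p under 0.05 (0.0387% of all genes tested were called higher and 0.00484% lower). The smallest p was that of Piwil2, a PIWI protein of the piRNA pathway, with 450 ± 59.2 CPM in KO and 601 ± 105 in WT (SD, n = 3 each, log2 fold change −0.42, SE 0.17, adjusted p = 0.607). In spermatocytes 7 of 22 rose and 4 fell, where 28% and 30.7% of all genes did, and the median of the list was 0.63 against 0.11 for all genes. The DNA methyltransferase genes Dnmt3a (87.7 ± 10.1 CPM in KO, 12.2 ± 11.3 in WT, SD, n = 4 each, log2 fold change 2.84, SE 0.56) and Dnmt3b (1.97, SE 0.54) rose. So did Hells (2.65, SE 0.38), a chromatin remodeller needed for DNA methylation, and Tex15 (2.54, SE 0.41), a factor of piRNA-directed methylation. The transcription factor genes Sp3 (1.39, SE 0.23), Rbpj (1.38, SE 0.36) and Creb1 (0.80, SE 0.21) rose as well. Trim28, the corepressor that KRAB zinc finger proteins recruit to ERVs, fell from 1034 ± 212 CPM in WT to 369 ± 23.0 in KO (log2 fold change −1.49, SE 0.21, adjusted p = 0.000178). Mael, a piRNA pathway gene, had a log2 fold change of −3.31 (SE 0.29, adjusted p = 1.25e-05). Dnmt3l, the cofactor of de novo methylation, had few counts, with 22, 14, 14 and 14 in KO and 68, 15, 125 and 40 in WT. Its WT replicate 2 lay within the KO range of counts. The log2 fold change of Dnmt3l was −2.45 (SE 0.57), but with library totals it was −1.83 (SE 0.61, adjusted p = 0.0202) and not called. Uhrf1, which guides maintenance methylation, had one of −0.78 (SE 0.22), just past the threshold, but of −0.04 (SE 0.23, adjusted p = 0.868) with library totals. With that scaling, tried on these genes after their values were seen, 12 of 22 were called higher and 2 lower (Mael and Trim28), where 36.8% and 22.3% of all genes were, and the median of the list was 1.29 against 0.79 for all genes. Nrf1, a transcription factor sensitive to DNA methylation, had a log2 fold change of 0.09 (SE 0.14) in spermatogonia and 0.47 (SE 0.24, adjusted p = 0.106) in spermatocytes, where it was called with library totals (1.14, SE 0.32, adjusted p = 0.00924). The cell type markers given above moved between the same spermatocyte groups, and their part in these differences was not tested.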

How the data were processed

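Polyadenylated RNA was sequenced with strand-specific libraries from 6 spermatogonia and 8 spermatocyte samples, and 1 spermatogonia library per genotype was left out by the authors for low RNA quality. The authors trimmed reads with cutadapt 4.0, mapped them with STAR 2.7.3a to GRCm38 with GENCODE M25 annotation, allowed up to 100 alignments per read, and assigned reads to genes and TE subfamilies with TEtranscripts and to single copies with TElocal. The deposited counts are raw read counts per gene or TE subfamily. The deposited TPM (transcripts per 1000000) of single copies were scaled by the authors to sum to 1000000 over TE copies alone. Since reads with several matches are divided between copies, near-identical copies are uncertain. Columns of the authors' own fold changes and p-values (DESeq2 1.44.0) were not used, and 0 columns of values lacked a sample.

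Counts were fitted with edgeR 4.0.16 in R 4.3.3 (filterByExpr, TMM over genes and TE subfamilies, quasi-likelihood F test, two-sided), separately for each stage and over all 14 libraries for comparisons of stages, with Benjamini-Hochberg adjustment over all genes and TE subfamilies and calls at an adjusted p below 0.01. For single copies the TPM were multiplied by the library's TMM-scaled TE counts per 1000000 over their geometric mean, kept at a mean TPM of at least 0.5, and fitted with limma 3.58.1 on log2(value + 0.1) with a trend, adjusted over all TE copies. Given the copies' lengths, 100% of the TPM above 0 came out as whole reads within 0.01, and these reads held 92.0% to 99.4% of a subfamily's counts. The count test on them (edgeR) called 6 member copies in spermatogonia and 74 in spermatocytes. Copies within 500 bases were joined to loci. Gene positions came from GENCODE M21 and sequences from RefSeq and GENCODE, all on GRCm38. DESeq2 1.42.0, SciPy 1.17.1, pandas 2.3.3, Biopython 1.88 and matplotlib 3.10.9 served for alternatives, intervals, tables, alignments and plots. The scripts were tested on simulated data.

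Named were all 5 subfamilies, the called copies without overlap of the genotypes that rose most (6) or fell most (4), the 3 copies highest in WT at each stage, 22 genes of silencing and transcription and the host genes of named copies. Other copies were named after their values were seen. The members and lists were chosen with earlier results of these data known. In spermatogonia the deviations of same-numbered libraries correlated at 0.52, 0.17 and 0.18 (all over 0.1), so the numbers were taken to pair the samples, although a replicate 2 library correlated more with another number (0.26) than with its own (0.17). The fits printed above held genotype alone and left this pairing out, save where a block is named. A replicate block, run as an alternative, changed 0 calls at that stage. The mice are not identified per library, so p-values measure the spread between these samples. Spermatocyte replicates 1 and 4 were fitted as separate samples, although they were alike and may not be independent. Intervals and floors (3 counts over a group) cover counting error only: the 95% Wilson interval of a share of TE counts was at most ± 0.0139 percentage points, and that of a share of ERVK counts at most ± 0.112. The alternatives tried are given in the closing section.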

Additional observations from a re-analysis of the deposited data

Results flagged for a closer look

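In 50 groups of 4 libraries with at least 20 reads, 1 library stood far from the other 3 in 2 groups, by Dixon's ratio of its gap to the group's range (critical value 0.829). Chance gives about 1 in 20. MMETn-int_dup888 had a ratio of 0.940 in KO spermatocytes, where replicate 3 had a scaled TPM of 2.80 and the others 1.66 to 1.73. ETnERV-int_dup822 had a ratio of 0.842 in WT spermatocytes, where replicate 3 had a scaled TPM of 51.3 and the others 15.2 to 20.9. In each case the other genotype lay wholly on 1 side, at up to 0.0425 and 2.26.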

How the results depend on the processing

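Of 5 subfamilies, 2 were called in spermatocytes. The number was 1 without a filter, 1 with a mean count of at least 50, 1 with a replicate block and 1 with library totals (then ETnERV3-int, higher), 0 with replicates 1 and 4 summed, and 1 to 2 on leaving out 1 library. For the stage difference it went from 0 to 1 with DESeq2 and with an adjusted p below 0.05, and for KO spermatocytes against KO spermatogonia likewise from 0 to 1. For WT spermatocytes against WT spermatogonia it went from 2 to 0 with library totals and was 1 to 2 on leaving out 1 library (1 without WT spermatogonia replicate 1 or 3). The cause was not tested.

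Of single copies, 37 were called in spermatocytes. The number was 23 with a mean TPM of at least 2, 21 with a pseudocount of 1, 74 with edgeR on recovered reads (32 higher, 42 lower), 12 with replicates 1 and 4 averaged and 77 with an adjusted p below 0.05. It was 16 to 46 on leaving out 1 library: 16 without WT replicate 1 or 4, 21 without KO replicate 1 or 4 or WT replicate 2, 25 without KO replicate 3 and 46 without KO replicate 2. On the deposited TPM 40 were called (12 higher, 28 lower), 28 without a filter and 37 with a pseudocount of 0.01. In spermatogonia 0 copies became 6 with edgeR on recovered reads (2 higher, 4 lower). In spermatocytes a replicate block took the copies from 37 to 13. The numbers of spermatocyte replicates were not taken to pair the samples (correlations of 0.08, 0.21, −0.01 and 0.12), and not every library correlated best with its own number. Beside these copies and the spermatocyte subfamilies above, the block changed no count of calls in the comparisons it was run in (both spermatogonia comparisons and the stage difference).

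Some log2 values that were not called turned sign. With library totals ETnERV-int turned to 0.29 in spermatocytes, the stage differences of ETnERV-int and MMETn-int to 0.55 and 0.66, and WT spermatocytes against WT spermatogonia to −0.14 for ETnERV-int, −0.12 for ETnERV3-int and −0.35 for MMETn-int. The stage difference of MMETn-int turned to 0.080 without a filter and 0.0076 with a replicate block. On leaving out 1 library the spermatogonia values ranged from −0.65 to 0.16 for ETnERV2-int, −0.15 to 0.43 for ETnERV3-int, −0.14 to 0.35 for MMETn-int and −0.41 to 0.16 for RLTRETN_Mm, that of MMETn-int in spermatocytes from −0.024 to 0.36, and the stage differences from −0.34 to 0.28 for ETnERV-int and −0.19 to 0.28 for MMETn-int. Of the values of single subfamilies and copies under all alternatives 828 kept side and direction, 235 lost and 6 gained the threshold, and 27 turned sign.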
